A study of Mus musculus with 4 samples.

Results

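The S100 genes encode small calcium-binding proteins. The 6 members described here, S100a4, S100a6, S100a8, S100a9, S100a10 and S100a11, were taken by their gene symbols and are 6 of the 32285 genes in the files. They were followed in single-cell RNA sequencing of mouse cells from 4 libraries, 1 for each treatment. The combination library came from 2DG together with aPDL1, and the other libraries came from 2DG alone, from aPDL1 alone and from the control, labelled ctrl. By general usage 2DG is 2-deoxy-D-glucose, a glucose analogue that cannot be used up in glycolysis, and aPDL1 is an antibody to the immune checkpoint ligand PD-L1. The series title concerns ovarian tumours and immune checkpoint blockade, while each sample is labelled as lymph node. The series as a whole is described as holding young and aged mice. The sample labels give no age, strain, dose, day or number of animals for any of the 4 libraries. With 1 library per treatment there is no replicate check, and a treatment cannot be told apart from the library made from it.

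S100 proteins bind calcium through EF-hand motifs and mostly act as dimers. S100a8 and S100a9 pair to form calprotectin, which fills the cytosol of neutrophils, is found in monocytes, and acts on Toll-like receptor 4 and on the receptor RAGE once released. S100a10 is the unusual member that has lost calcium binding and works with annexin A2, encoded by Anxa2. S100a4 binds non-muscle myosin and is high in effector and memory T cells and in motile myeloid cells. S100a6, also called calcyclin, binds calcyclin-binding protein (Cacybp), and S100a11 binds annexin A1 (Anxa1).

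The libraries held 9948 cell barcodes (combination), 8701 (2DG), 9764 (aPDL1) and 9655 (ctrl), with 65369018, 61859753, 62823127 and 73885214 unique molecular identifiers (UMIs, the count of distinct captured RNA molecules). Any pair of libraries shared 22 to 30 barcodes. After filters, 8553, 7380, 8319 and 8381 cells were analysed, and 13 panels of marker genes that hold no S100 gene sorted them into 16 reported classes. Every class name below stands for cells that passed that marker gate, and in each library the class's own panel was the highest. A level is the UMIs of a gene per 1000000 UMIs (CPM) of all cells of a class summed, and intervals are 95% intervals that cover counting error only. The ctrl library stood apart: neutrophils made up 3.11% of the cells in the combination library, 4.36% in 2DG, 2.95% in aPDL1 and 33.7% in ctrl. B cells, which are common in lymph nodes, made up 5.23%, 1.67%, 2.76% and 0.871%.

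The 6 genes divided the cell classes between them, as the heat map of levels shows. S100a8 and S100a9 were concentrated in neutrophils: of the S100a8 UMIs in the cells left after filters and doublet removal, the neutrophil gates held 85.8% (combination), 98.5% (2DG), 93.3% (aPDL1) and 93.8% (ctrl). For S100a9 those shares were 90.1%, 98.9%, 93.6% and 96.1%. S100a4 was high in type 2 and migratory dendritic cells, T cells and monocytes and low in neutrophils. S100a10 was highest in regulatory T cells in all 4 libraries. S100a11 was highest in the Retnlg Il1r2 neutrophils in all 4 libraries, and S100a6 was highest in them in every library but the combination one, where type 2 dendritic cells had 1921 CPM and these neutrophils 1845 CPM, with overlapping counting intervals.

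**Figure D1:**
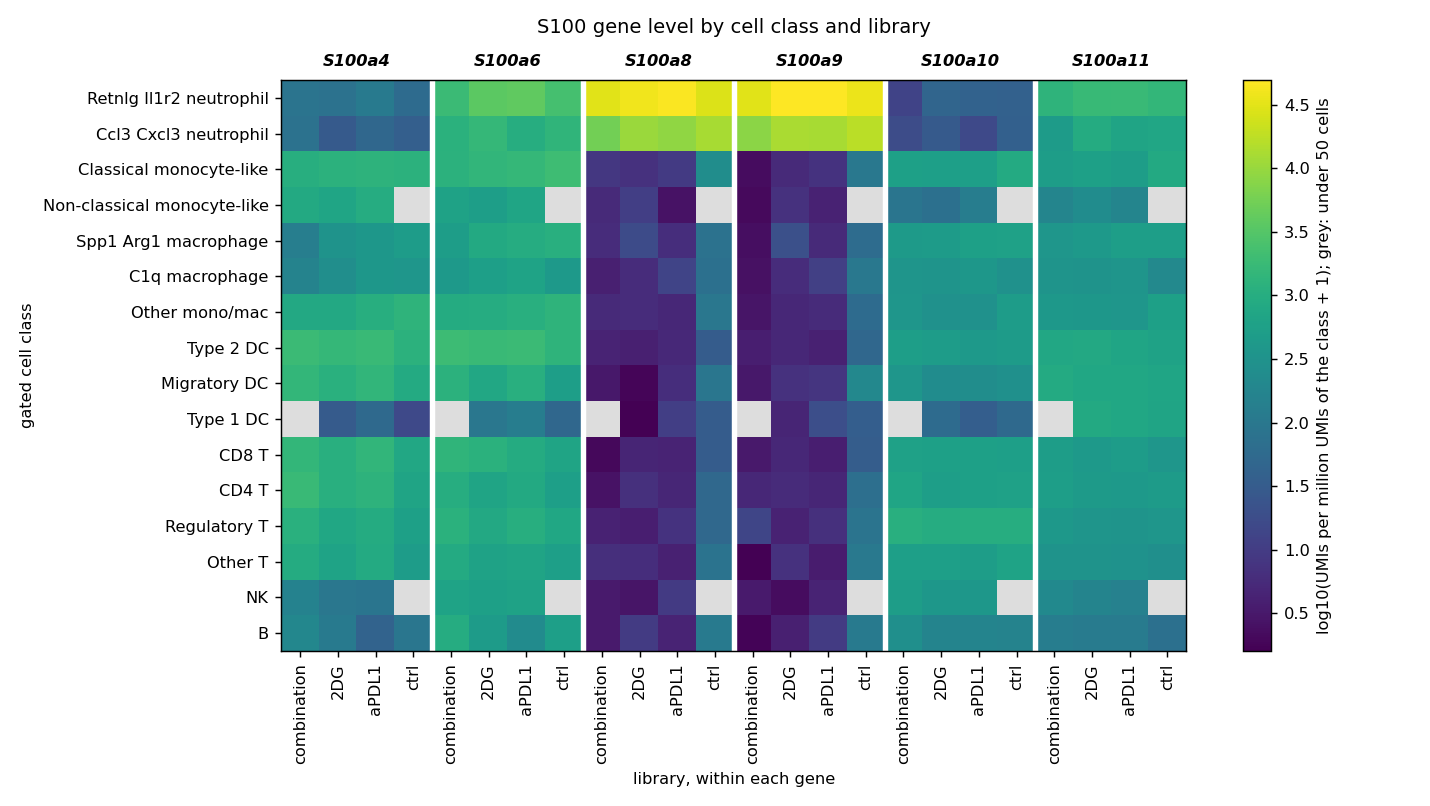
Level of each S100 gene (colour, CPM on a log scale) in each marker-gated class, with the combination, 2DG, aPDL1 and ctrl libraries side by side. S100a8 and S100a9 stand out in both neutrophil classes, S100a10 is highest in regulatory T cells, and S100a4 and S100a6 spread over T cells, dendritic cells and monocytes.

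All 6 genes lie on mouse chromosome 3 (GRCm38 with GENCODE M21 gene models, which is the build that the deposited notes name as mm10). S100a4 (ENSMUSG00000001020) spans 90603771 to 90606045 and S100a6 (ENSMUSG00000001025) spans 90612882 to 90624181, both on the plus strand. S100a8 (ENSMUSG00000056054) spans 90668978 to 90670035 on the plus strand, and S100a9 (ENSMUSG00000056071) spans 90692632 to 90695721 on the minus strand. S100a11 (ENSMUSG00000027907) spans 93520488 to 93526287 and S100a10 (ENSMUSG00000041959) spans 93555080 to 93564643, both on the plus strand. The first 4 genes form a group, with 22596 bases between S100a8 and S100a9 and 6836 bases between S100a4 and S100a6. S100a9 and S100a11 are 2824766 bases apart. Neighbours did not always share a pattern. Over 61 class and library sums, log2(CPM + 1) of S100a8 and S100a9 had a Pearson correlation of 0.98, while S100a4 and its neighbour S100a6 had 0.38. S100a4 and the distant S100a10 had 0.72, and S100a8 and S100a10 had -0.68. These sums share libraries and the correlations are a description.

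The promoters of S100a8 and S100a9 are shown because these genes had like levels over the classes although they read in opposite directions. RefSeq sequence of GRCm38.p6 from 250 bases before to 50 bases after the annotated start was found for 5 of the 6 genes. The S100a8 window is chr3:90668821-90669120 on the plus strand and the S100a9 window is chr3:90695672-90695971 on the minus strand. Each is printed 5′ to 3′ with capitals for matches to a C/EBP motif (TTGCNNAA), a PU.1 motif (GAGGAAGT, here as its reverse complement) and a TATA box (TATAAA).
S100a8: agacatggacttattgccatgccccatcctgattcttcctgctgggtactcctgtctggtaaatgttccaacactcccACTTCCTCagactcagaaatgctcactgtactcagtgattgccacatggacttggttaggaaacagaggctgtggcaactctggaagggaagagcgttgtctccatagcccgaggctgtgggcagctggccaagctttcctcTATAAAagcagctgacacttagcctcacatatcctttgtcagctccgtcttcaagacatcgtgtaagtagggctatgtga
S100a9: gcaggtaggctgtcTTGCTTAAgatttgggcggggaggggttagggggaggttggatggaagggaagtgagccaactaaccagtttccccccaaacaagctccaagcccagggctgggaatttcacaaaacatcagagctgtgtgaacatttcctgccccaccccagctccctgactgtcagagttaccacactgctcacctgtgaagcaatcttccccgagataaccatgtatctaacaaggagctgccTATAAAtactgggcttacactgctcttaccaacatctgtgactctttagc
C/EBP proteins and PU.1 are transcription factors of myeloid cells. With the annotated start as position 0, the S100a8 window held the PU.1 letters at -172 to -165 and a TATA box at -30 to -25. The S100a9 window held the C/EBP letters at -236 to -229 and the letters TATAAA at 0 to 5. That match lies on the annotated start and not before it, unlike the one of S100a8. No match overlapped another. On both strands of 32851 promoter windows of the same length, 10.8% held TTGCNNAA, 3.20% held GAGGAAGT and 13.6% held TATAAA. An AP-1 motif (TGANTCA), held by 7.81% of windows, occurred in the S100a11 window at -136 to -130 and again at -38 to -32. The S100a4 window held a TATA box at -31 to -26 and the PU.1 letters at 17 to 24. The matches are letters in these windows only.

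The 4 pairs of libraries compared below share libraries with one another. A level was taken as differing when it was 1.5-fold or more apart, the higher library had at least 50 UMIs of the gene, and both libraries had at least 50 cells of the class. For 2DG over ctrl, 7 class levels of the 6 genes were higher and 20 lower of 74, against a background over all genes and classes of 20.5% past this size (10.7% higher and 9.87% lower). For aPDL1 over ctrl, 15 were higher and 22 lower of 72, against 22.9% (11.9% higher and 11% lower). For the combination over aPDL1, 5 were higher and 9 lower of 63, against 14.3% (6.06% higher and 8.26% lower). For the combination over 2DG, 9 were higher and 10 lower of 64, against 13.3% (5.8% higher and 7.5% lower). For either single treatment over ctrl, 15 of the lower levels were S100a8 or S100a9 outside neutrophils, where free RNA is at issue. For the combination, 3 of the lower levels over aPDL1 and 3 over 2DG were S100a8 or S100a9 in neutrophils, and 1 and 2 were outside them. Without these 2 genes the counts were 7 higher and 5 lower of 55 for 2DG over ctrl, and 14 higher and 7 lower of 53 for aPDL1 over ctrl. For the combination, they were 5 higher and 5 lower of 57 over aPDL1, and 9 higher and 5 lower of 57 over 2DG.

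In neutrophils, the order of the libraries in S100a8 and S100a9 depended on a few cells. The neutrophils formed 2 classes. The class gated on genes such as Retnlg, which encodes a resistin-like protein, and Il1r2, a decoy receptor of interleukin-1, held 181 cells (combination), 266 (2DG), 173 (aPDL1) and 1378 (ctrl). The class with the chemokine genes Ccl3 and Cxcl3 held 85, 56, 72 and 1450 cells. S100a8 in Retnlg Il1r2 neutrophils was at 30991 CPM in the combination library, 39595 CPM in 2DG, 45584 CPM in aPDL1 and 29140 CPM in ctrl. S100a9 was at 31274, 49323, 48789 and 36055 CPM in the same order. The aPDL1 and 2DG libraries were thus the highest for both genes, and S100a8 of aPDL1 over ctrl was past 1.5-fold, at a log2 ratio of 0.65 (0.63 to 0.66). S100a9 of the combination was lower than that of aPDL1 by a log2 ratio of -0.64 (-0.67 to -0.62) and lower than that of 2DG by -0.66 (-0.68 to -0.63).

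The typical cell gave another order. The median cell of this class had 18 S100a8 UMIs in the combination library, 24 in 2DG, 20 in aPDL1 and 81 in ctrl, at median depths of 2604, 2950, 2638 and 3988 UMIs per cell. For S100a9 the median cell had 18, 30.5, 30 and 113 UMIs. By cell median, ctrl was therefore the highest library for both genes. The 5% of cells with the most S100a8 held 66.6% of its UMIs in the combination library, 48.8% in 2DG, 37.1% in aPDL1 and 32.7% in ctrl.

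A small set of neutrophils carried granule genes. Camp, Ngp and Ltf encode cathelicidin, neutrophilic granule protein and lactoferrin, granule proteins made while neutrophils mature in the bone marrow. Cells with 5 or more UMIs of the 3 genes together numbered 12 of the Retnlg Il1r2 neutrophils in the combination library, 31 in 2DG, 31 in aPDL1 and 69 in ctrl, which were 6.63%, 11.7%, 17.9% and 5.01% of the class. They held 73.5%, 73.0%, 79.7% and 25.6% of its S100a8 UMIs and 69.5%, 71.9%, 78.0% and 21.3% of its S100a9 UMIs. Their own S100a8 level was 120641, 87829, 94226 and 85506 CPM. In each library this was above the level of the class as a whole.

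Without the granule-gene cells the order of libraries was that of the median UMIs per cell. By median CPM per cell in the whole class, aPDL1 was instead slightly above 2DG. These medians were 9013 against 8814 CPM for S100a8 and 11522 against 11466 CPM for S100a9. S100a8 in the remaining cells was at 10115 CPM in the combination library, 15946 CPM in 2DG, 15070 CPM in aPDL1 and 23754 CPM in ctrl. S100a9 was at 11744, 20677, 17497 and 31069 CPM. The ctrl library was the highest and the combination the lowest for both genes, and the log2 ratio of S100a8 for aPDL1 over ctrl was -0.66 in place of 0.65. The choice of doublet removal acted on the same cells: at 2 times the rate of doublets removed, 8, 4, 0 and 67 granule-gene cells were left, and S100a8 was at 25125, 15460, 10605 and 29887 CPM. S100a9 was then at 25968, 20288, 12661 and 37032 CPM, so that the combination was above both single treatments. Whether the granule-gene cells of the treated libraries are single cells or doublets was not tested.

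**Figure D2:**
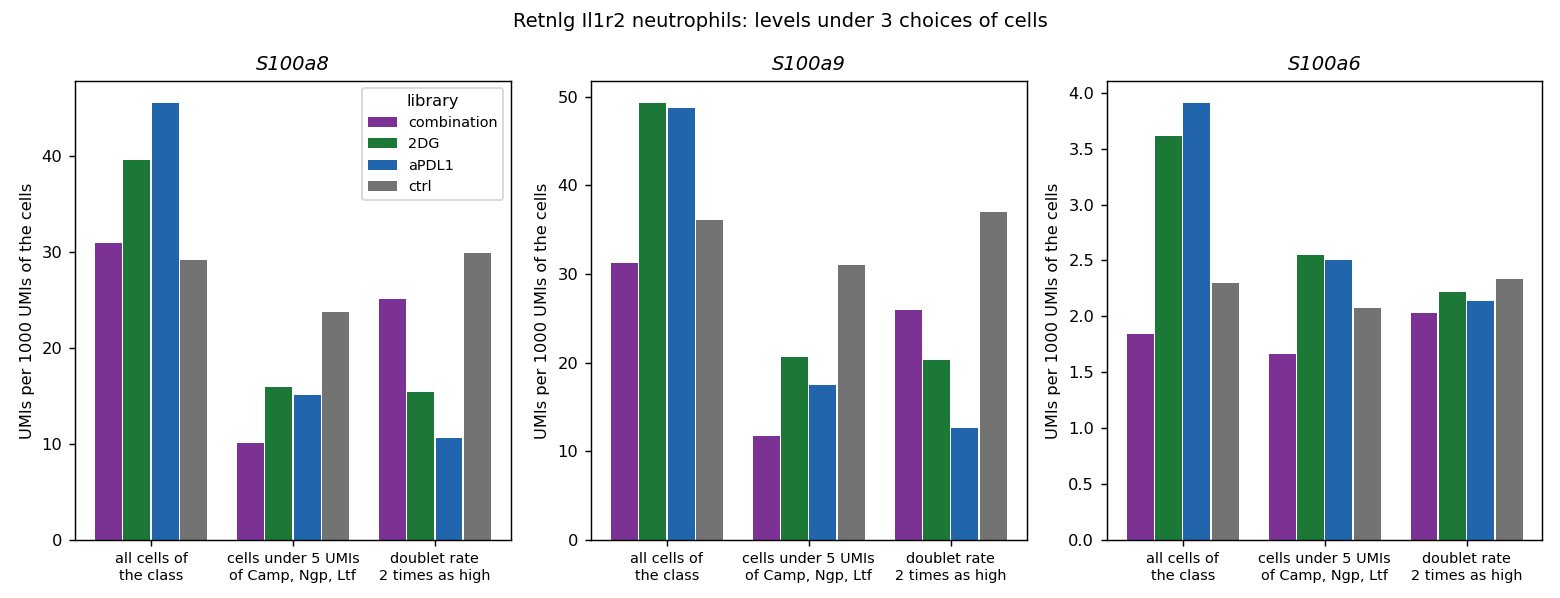
Levels of S100a8, S100a9 and S100a6 (bars, UMIs per 1000 UMIs of the cells) in Retnlg Il1r2 neutrophils of the combination, 2DG, aPDL1 and ctrl libraries under 3 choices of cells: all cells, cells with under 5 UMIs of Camp, Ngp and Ltf, and cells left at 2 times the doublet rate. With all cells aPDL1 has the highest S100a8, and under the other choices ctrl has.

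The Ccl3 Cxcl3 neutrophils had lower S100a8 and S100a9 than the Retnlg Il1r2 neutrophils in every library. S100a8 was at 5431 CPM in the combination library, 10394 CPM in 2DG, 8837 CPM in aPDL1 and 12593 CPM in ctrl, and S100a9 at 8298, 13446, 12886 and 17262 CPM. The combination was the lowest and ctrl the highest for both genes, the same order as in Retnlg Il1r2 neutrophils without granule-gene cells. The log2 ratio of the combination over 2DG was -0.94 (-1.04 to -0.83) for S100a8 and -0.70 (-0.78 to -0.61) for S100a9, the second of which was -0.49 with each cell weighted equally. Over aPDL1 it was -0.70 for S100a8 and -0.63 for S100a9, which became -0.39 and -0.45 with no doublet removal and so no longer reached 1.5-fold.

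The listed regulators of myeloid genes had other orders. Cebpb, which encodes a C/EBP factor of myeloid cells, was at 2351 CPM (combination), 1812 CPM (2DG), 1167 CPM (aPDL1) and 3006 CPM (ctrl) in Retnlg Il1r2 neutrophils. Cebpe, the C/EBP factor of granule formation, was at 64.7, 107, 104 and 13.9 CPM, lowest in ctrl, which had the smallest share of granule-gene cells. Spi1, which encodes PU.1, was at 446, 480, 439 and 402 CPM. Over all classes, 20 of 68 levels of the 9 listed regulators were higher and 8 lower in the combination than in aPDL1, with a median log2 ratio of 0.28, against -0.06 for all genes, and 41.2% of them past 1.5-fold. For the combination over 2DG 10 were higher and 3 lower of 67, for 2DG over ctrl 8 were higher and 7 lower of 60, and for aPDL1 over ctrl 7 were higher and 11 lower of 60. In these 3 pairs 19.4%, 25% and 30% of the levels were past 1.5-fold, against 13.3%, 20.5% and 22.9% over all genes. For the combination over aPDL1 the share over all genes was 14.3%.

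**Figure D3:**
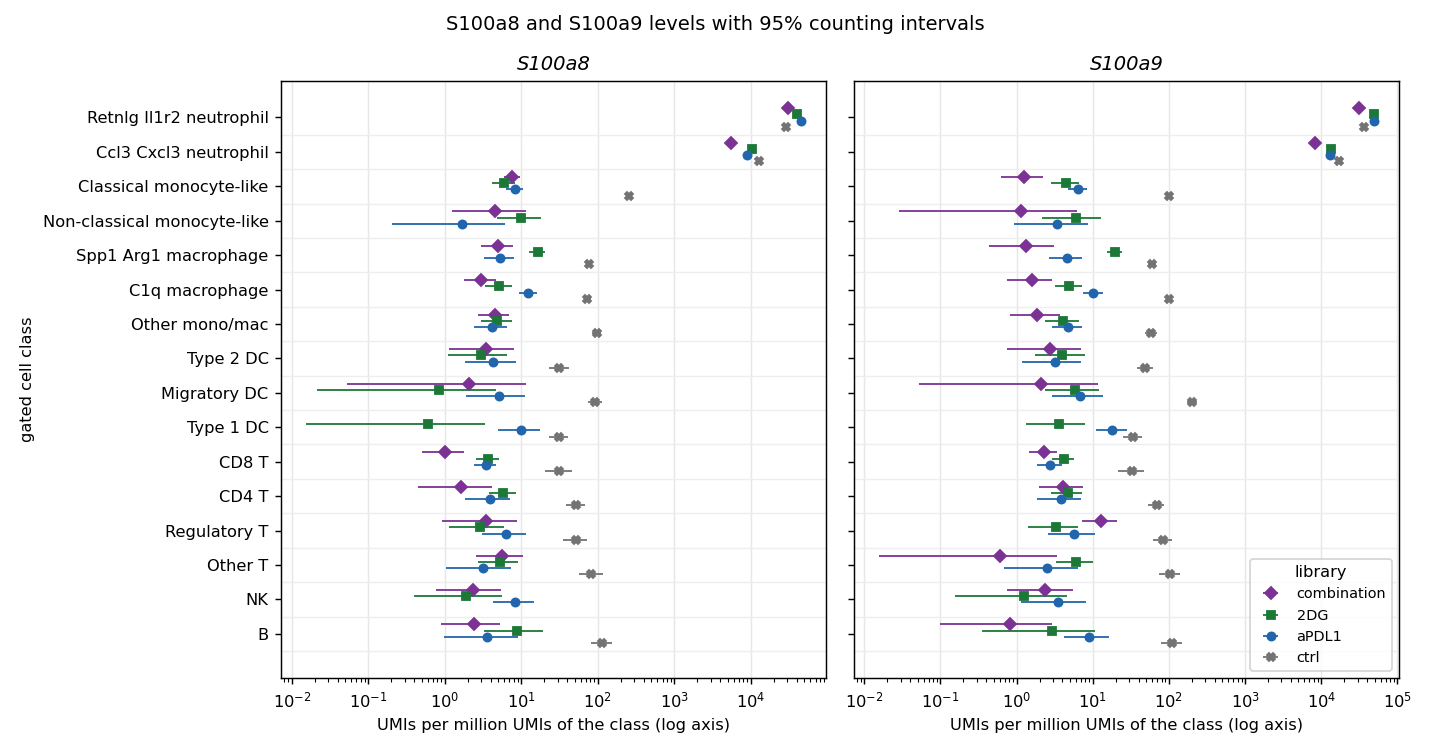
S100a8 and S100a9 levels (CPM, log axis) in each class, with 1 point per library in the order combination, 2DG, aPDL1 and ctrl. Neutrophils lie far above all other classes, and outside neutrophils the ctrl library lies above the 3 treated libraries.

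Outside neutrophils, a low level of S100a8 and S100a9 was found in every class and followed the library. T and B cells, which should lack both genes, had 1.81 CPM of S100a8 in the combination library, 4.44 CPM in 2DG, 3.73 CPM in aPDL1 and 57.2 CPM in ctrl when pooled. S100a9 was at 2.83, 4.34, 3.56 and 70.9 CPM. The library with the most neutrophils was thus also the one with the most S100a8 and S100a9 in lymphocytes. In ctrl these lymphocytes had 0.81 S100a8 UMIs per S100a9 UMI (0.66 to 0.98), and the ctrl neutrophils had 0.81 in the Retnlg Il1r2 class and 0.73 in the Ccl3 Cxcl3 class. C1q macrophages of ctrl also had 0.73. In 2DG and aPDL1 the pooled T and B cells had slightly more S100a8 than S100a9, while both neutrophil classes had less. Whether these low levels are free RNA was not tested.

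Classical monocytes of the ctrl library had a higher proportion of S100a8 to S100a9 than its lymphocytes and neutrophils. S100a8 was at 7.64 CPM in the combination library, 6.0 CPM in 2DG, 8.24 CPM in aPDL1 and 256 CPM in ctrl, and S100a9 at 1.25, 4.41, 6.38 and 99.4 CPM. In ctrl the S100a8 level was 4.48 times that of its T and B cells and the S100a9 level 1.40 times. They had 2.58 S100a8 UMIs per S100a9 UMI (2.44 to 2.73), an interval that lies above those of the ctrl neutrophils and lymphocytes. The combination library had 6.09 (3.20 to 12.8) in these cells, from 67 and 11 UMIs, and 2DG and aPDL1 had 1.36 (0.79 to 2.38) and 1.29 (0.87 to 1.92).

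The ctrl excess was partly in few cells. In ctrl, 37 of 1441 classical monocytes had 20 or more S100a8 UMIs and held 58.9% of the S100a8 UMIs of the class, and no classical monocyte of the other libraries reached that number. The 37 cells had 2583 S100a8 UMIs and 1004 S100a9 UMIs. The monocyte genes Chil3 and Ly6c2 were at 3298 and 441 CPM in them, against 1648 and 140 CPM in the other 1404 cells. Retnlg, a neutrophil gene, had no UMI in the 37 cells, while G0s2, also a neutrophil gene, was at 211 CPM in them against 8.95 CPM in the others. The other 1404 cells had 1806 S100a8 and 698 S100a9 UMIs, so S100a8 also exceeded S100a9 without those cells.

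By share of cells, 3.30% of classical monocytes in the combination library, 5.10% in 2DG, 3.68% in aPDL1 and 47.3% in ctrl had an S100a8 UMI. CD8 T cells, as background, had 0.656%, 2.51%, 2.11% and 16.2%. The monocytes were deeper, with median UMIs per cell of 7106, 7948, 7246 and 11749, against 5947, 6154, 5964 and 6463 in CD8 T cells. After each cell was thinned to 1500 UMIs, the monocyte share was 1.04%, 1.39%, 1.02% and 15.1%, and the CD8 T share was 0.240%, 0.593%, 0.501% and 2.65%. In ctrl the other lymphocyte classes had thinned shares of 5.34% (CD4 T), 5.8% (other T), 7.41% (regulatory T) and 9.38% (B). The ctrl monocytes, at 15.1% (13.3 to 17.0), were above each of these, while the interval of the 64 thinned B cells, 3.52 to 19.3%, included their share. The log2 ratio of S100a8 in classical monocytes was -5.40 for 2DG over ctrl and -4.95 for aPDL1 over ctrl.

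Macrophage classes of ctrl held less S100a8 than its classical monocytes, but not always less S100a9. C1q macrophages of ctrl had 72.8 CPM of S100a8 and 100 CPM of S100a9. Their S100a9 was 1.41 times that of ctrl T and B cells, near the 1.40 times of classical monocytes. In ctrl, Spp1 Arg1 macrophages had 76.7 CPM of S100a8 and 60.0 CPM of S100a9, with 1.28 UMIs per UMI (1.10 to 1.49), and the other monocytes and macrophages had 97.5 and 58.1 CPM, with 1.68 (1.35 to 2.09). Both S100a8 levels were above the 57.2 CPM of ctrl lymphocytes, and both S100a9 levels were below the 70.9 CPM. Migratory dendritic cells of ctrl had the opposite balance, with 91.9 CPM of S100a8, 202 CPM of S100a9 and a ratio of 0.45 (0.35 to 0.59). These sums rested on few cells. The top 5% of the 114 migratory dendritic cells held 61.1% of the S100a8 UMIs and 68.7% of the S100a9 UMIs. In ctrl C1q macrophages the top 5% held 71.5% of the S100a9 UMIs. The median cell of both classes had 0 S100a9 UMIs, and the counting intervals do not cover such unevenness.

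**Figure D4:**
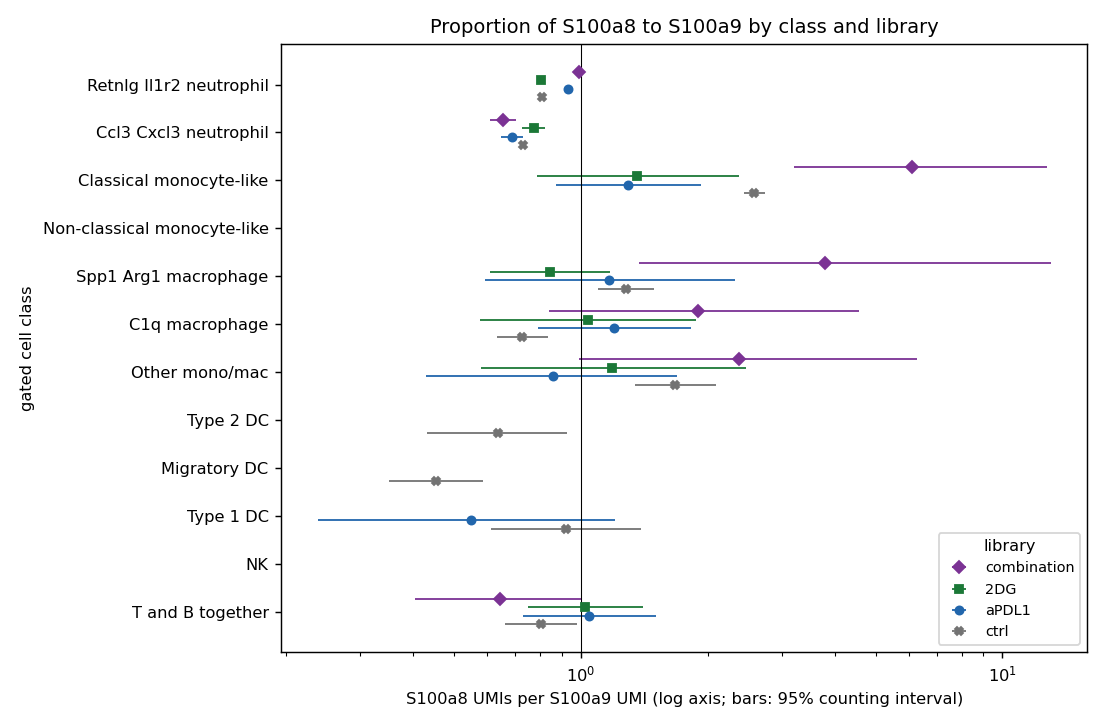
S100a8 UMIs per S100a9 UMI (points, log axis) with 95% counting intervals by class and library, for sums with at least 20 UMIs of both genes together. In ctrl, classical monocytes lie at 2.58, above the neutrophils at 0.81 and 0.73 and the T and B cells at 0.81.

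The possible receptors of calprotectin were unequally detected. Tlr4, which encodes Toll-like receptor 4, was at 350 CPM (combination), 408 CPM (2DG), 307 CPM (aPDL1) and 560 CPM (ctrl) in Retnlg Il1r2 neutrophils, and at 601, 826, 458 and 955 CPM in Ccl3 Cxcl3 neutrophils. In classical monocytes it was at 137, 148, 189 and 317 CPM. The ctrl library had the highest Tlr4 in all 3 classes. Ager, which encodes RAGE, never exceeded 2.04 CPM and reached 50 UMIs in no class of any library. Cd33, a lectin reported to bind S100A9 in human cells, was at 241, 230, 296 and 457 CPM in Retnlg Il1r2 neutrophils. Emb, which encodes embigin, reported to bind S100A8 and S100A9 in other cells, was at 1715, 888, 744 and 1074 CPM in CD8 T cells.

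S100a6 was found in neutrophils, macrophages, dendritic cells and lymphocytes, and the combination was lower in some classes and higher in others. In Retnlg Il1r2 neutrophils it was at 1845 CPM in the combination library, 3610 CPM in 2DG, 3911 CPM in aPDL1 and 2301 CPM in ctrl. The log2 ratio was 0.65 (0.60 to 0.70) for 2DG over ctrl, 0.77 (0.70 to 0.82) for aPDL1 over ctrl, -1.08 (-1.19 to -0.98) for the combination over aPDL1 and -0.97 (-1.07 to -0.87) for the combination over 2DG. The single treatments were thus above ctrl and the combination below both. Granule-gene cells held 26.8%, 52.6%, 60.6% and 17.8% of the S100a6 UMIs of the class, and without them the levels were 1665, 2549, 2504 and 2071 CPM, with the combination still past 1.5-fold below both single treatments. At 2 times the doublet rate they were 2030, 2217, 2138 and 2338 CPM, and no pair was past 1.5-fold.

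In Spp1 Arg1 and C1q macrophages S100a6 was lower in the combination library than in either single treatment. Spp1 Arg1 macrophages, which have a tissue-repair and hypoxia gene profile in tumours, had 508 CPM of S100a6 in the combination library, 842 CPM in 2DG, 958 CPM in aPDL1 and 1098 CPM in ctrl. The log2 ratio was -0.91 (-0.99 to -0.84) for the combination over aPDL1 and -0.73 (-0.81 to -0.65) over 2DG. C1q macrophages, which express complement genes, had 410, 554, 650 and 404 CPM. The combination was past 1.5-fold below aPDL1 at -0.66, and aPDL1 was past it above ctrl at 0.68. With each cell weighted equally, the Spp1 Arg1 ratio over 2DG was -0.55, and with median-of-ratios scaling the C1q ratio over aPDL1 was -0.51, both short of 1.5-fold. Classical monocytes had 1237, 1445, 1546 and 1971 CPM, with no pair past 1.5-fold.

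In lymphocytes S100a6 was higher in the combination library than in either single treatment. CD8 T cells had 1379 CPM in the combination library, 1182 CPM in 2DG, 909 CPM in aPDL1 and 657 CPM in ctrl. The log2 ratio was 0.85 (0.72 to 0.97) for 2DG over ctrl and 0.60 (0.57 to 0.64) for the combination over aPDL1, so both pairs that differ by 2DG were higher with it. The second of these was 0.54, short of 1.5-fold, with no doublet removal. CD4 T cells had 1008, 663, 857 and 538 CPM, and regulatory T cells 1187, 806, 1046 and 753 CPM. In both of these the libraries with aPDL1 were above those without it.

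B cells had 981 CPM of S100a6 in the combination library, 471 CPM in 2DG, 237 CPM in aPDL1 and 544 CPM in ctrl, from 447, 123, 230 and 73 cells. The combination was higher than aPDL1 by a log2 ratio of 2.05 (1.87 to 2.24) and higher than 2DG by 1.06 (0.89 to 1.23), and aPDL1 was lower than ctrl by -1.20 (-1.47 to -0.93). The B cells of 2DG carried 1675 CPM of a plasma cell panel, against at most 836 CPM of the next panel in the other libraries, and 483 CPM of the neutrophil panel, against 55.6 to 86.3 CPM. The part of these in the S100a6 values was not tested. The ratio of aPDL1 over ctrl became -0.45 with no doublet removal. Ighd encodes the heavy chain of IgD, the receptor of naive B cells. Cells with no Ighd UMI had 1697, 922, 426 and 1066 CPM of S100a6, and cells with one had 473, 101, 90.6 and 237 CPM. S100a6 was thus higher in cells without Ighd in every library, and the combination was the highest library within either group.

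S100a4 was lower in T cells of ctrl than in T cells of the treated libraries. CD8 T cells had 1491 CPM in the combination library, 1081 CPM in 2DG, 1434 CPM in aPDL1 and 797 CPM in ctrl. CD4 T cells had 1780, 1099, 1275 and 674 CPM. Regulatory T cells, which restrain other T cells, had 1112, 741, 929 and 580 CPM, and the remaining T cells 913, 641, 889 and 476 CPM. In all 4 T classes the order was the combination, aPDL1, 2DG and ctrl.

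The aPDL1 over ctrl log2 ratio of S100a4 was 0.85 (0.74 to 0.96) in CD8 T, 0.92 (0.80 to 1.04) in CD4 T, 0.68 (0.51 to 0.85) in regulatory T and 0.90 (0.68 to 1.13) in other T cells. Over all classes, S100a4 was higher in 7 and lower in 0 of 12 levels of that pair, where 11.9% of all levels were higher. In CD8 T cells alone the background of genes higher in aPDL1 than in ctrl was 16.7%, and in CD4 T cells 10.4%. The combination over 2DG was past 1.5-fold in CD4 T cells, at 0.70 (0.64 to 0.75), and just past it in regulatory T cells, at 0.59 (0.48 to 0.69), where 4 other settings gave 0.55 to 0.58. For 2DG over ctrl, CD4 T cells were past it at 0.71 (0.59 to 0.83), which was 0.57 with no doublet removal.

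By share of cells with S100a4, ctrl was again the lowest library. After thinning to 1500 UMIs, S100a4 was found in 70.2% of CD8 T cells in the combination library, 59.8% in 2DG, 71.0% in aPDL1 and 48.7% in ctrl, and in 71.5%, 56.3%, 67.1% and 41.2% of CD4 T cells.

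In Spp1 Arg1 and C1q macrophages S100a4 was lowest in the combination library. Spp1 Arg1 macrophages had 135 CPM in the combination library, 326 CPM in 2DG, 384 CPM in aPDL1 and 494 CPM in ctrl. The log2 ratio was -1.51 (-1.66 to -1.37) for the combination over aPDL1, -1.27 (-1.42 to -1.13) for the combination over 2DG and -0.60 (-0.69 to -0.50) for 2DG over ctrl, the last of which was -0.56 with no doublet removal. C1q macrophages had 159, 261, 378 and 359 CPM, with -1.25 (-1.36 to -1.13) for the combination over aPDL1. The other monocytes and macrophages had 824, 828, 1056 and 1353 CPM, with -0.71 (-0.78 to -0.64) for 2DG over ctrl, which was -0.57 with each cell weighted equally. Classical monocytes, at 1052, 1206, 1298 and 1217 CPM, had no pair past 1.5-fold.

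Dendritic cells had high S100a4 with 1 exception. Type 2 dendritic cells, which present antigen mainly to CD4 T cells, had 1844 CPM in the combination library, 1580 CPM in 2DG, 1797 CPM in aPDL1 and 1225 CPM in ctrl. This class also carried 944 to 1389 CPM of the neutrophil marker panel, against 1516 to 1712 CPM of its own panel, and the part of this in its S100 levels was not tested. Migratory dendritic cells, which carry antigen to lymph nodes, had 1506, 1141, 1416 and 904 CPM. Type 1 dendritic cells, which present antigen to CD8 T cells, had only 30.4 CPM in 2DG, 54.9 CPM in aPDL1 and 14.6 CPM in ctrl. They were low for S100a6 as well, at 96.1, 127 and 50.7 CPM, and for S100a10, at 59.0, 34.2 and 54.4 CPM. S100a11 was instead at 848, 756 and 670 CPM in them.

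Non-classical monocytes, which patrol vessel walls, had 861 CPM of S100a4 in the combination library, 708 CPM in 2DG and 951 CPM in aPDL1. S100a4 was low in B and NK cells. B cells had 193 CPM in the combination library, 110 CPM in 2DG, 42.4 CPM in aPDL1 and 91.6 CPM in ctrl, a log2 ratio of 2.17 (1.76 to 2.65) for the combination over aPDL1. B cells without Ighd had 349, 227, 75.1 and 162 CPM and those with it 82.1, 13.3, 17.2 and 49.9 CPM. NK cells had 158 CPM in the combination library, 97.2 CPM in 2DG and 88.2 CPM in aPDL1. The NK ratio of the combination over aPDL1 was 0.83, and 0.29 with no doublet removal. Myh9, which encodes the heavy chain of the myosin that S100a4 binds, was at 569, 801, 860 and 660 CPM in CD8 T cells, where the combination was the lowest library while its S100a4 was the highest.

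S100a10 differed by less than 1.5-fold between the 4 libraries in every T class. Regulatory T cells had 1103 CPM in the combination library, 954 CPM in 2DG, 983 CPM in aPDL1 and 1020 CPM in ctrl, which is 1.16-fold from lowest to highest. CD8 T cells had 594, 566, 560 and 539 CPM, or 1.10-fold, and CD4 T cells 686, 526, 572 and 585 CPM, or 1.30-fold. Classical monocytes had 568, 540, 551 and 894 CPM. There ctrl was above the other libraries, with log2 ratios of -0.73 (-0.78 to -0.67) for 2DG over ctrl and -0.70 (-0.75 to -0.65) for aPDL1 over ctrl. Both were -0.57, short of 1.5-fold, under a stricter marker gate. S100a10 was nearly absent from Retnlg Il1r2 neutrophils, at 11.6, 45.0, 40.3 and 38.2 CPM.

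The partner Anxa2, like S100a10, was highest in ctrl in classical monocytes, at 617 CPM in the combination library, 655 CPM in 2DG, 862 CPM in aPDL1 and 1147 CPM in ctrl. In regulatory T cells, where S100a10 was at its highest, Anxa2 had 254, 225, 297 and 264 CPM, below the 443, 331, 405 and 411 CPM of CD8 T cells. In Retnlg Il1r2 neutrophils, where S100a10 was low, Anxa2 was at 460, 593, 563 and 536 CPM. Ahnak, which encodes a large scaffold protein that binds the complex of S100a10 and annexin A2, was at 832, 733, 985 and 652 CPM in classical monocytes. Ahnak was thus lowest in ctrl, where S100a10 was highest.

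S100a11 was past 1.5-fold in 0 of 15 levels for the combination over aPDL1 and 1 of 15 for the combination over 2DG, against 14.3% and 13.3% over all genes. It was past it in 3 of 14 levels for 2DG over ctrl and 4 of 14 for aPDL1 over ctrl, near the 20.5% and 22.9% over all genes. Retnlg Il1r2 neutrophils had 1307 CPM in the combination library, 1708 CPM in 2DG, 1770 CPM in aPDL1 and 1478 CPM in ctrl. Ccl3 Cxcl3 neutrophils had 469, 912, 672 and 713 CPM, with a log2 ratio of -0.96 (-1.32 to -0.60) for the combination over 2DG. CD8 T cells had 499, 416, 479 and 360 CPM. B cells had 125, 117, 119 and 70.6 CPM, with 0.71 (0.08 to 1.42) for 2DG over ctrl and 0.73 (0.15 to 1.41) for aPDL1 over ctrl, which were 0.44 and 0.37 with no doublet removal.

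In the monocyte lineage S100a11 differed in opposite directions. Classical monocytes had 498 CPM in the combination library, 559 CPM in 2DG, 504 CPM in aPDL1 and 851 CPM in ctrl, with log2 ratios of -0.61 (-0.66 to -0.55) for 2DG over ctrl and -0.75 (-0.81 to -0.70) for aPDL1 over ctrl. C1q macrophages had 332, 323, 357 and 204 CPM, with 0.66 (0.55 to 0.78) and 0.81 (0.69 to 0.92) for those pairs. The 2DG over ctrl values were -0.53 in classical monocytes under a stricter marker gate and 0.48 in C1q macrophages with each cell weighted equally, both short of 1.5-fold. Within the same pair of libraries, S100a11 was therefore lower in one class of the lineage and higher in another. Anxa1, which encodes its partner annexin A1, was at 150, 122, 120 and 254 CPM in classical monocytes, where ctrl was the highest for both genes. In Retnlg Il1r2 neutrophils Anxa1 was at 559, 479, 548 and 301 CPM.

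**Figure D5:**
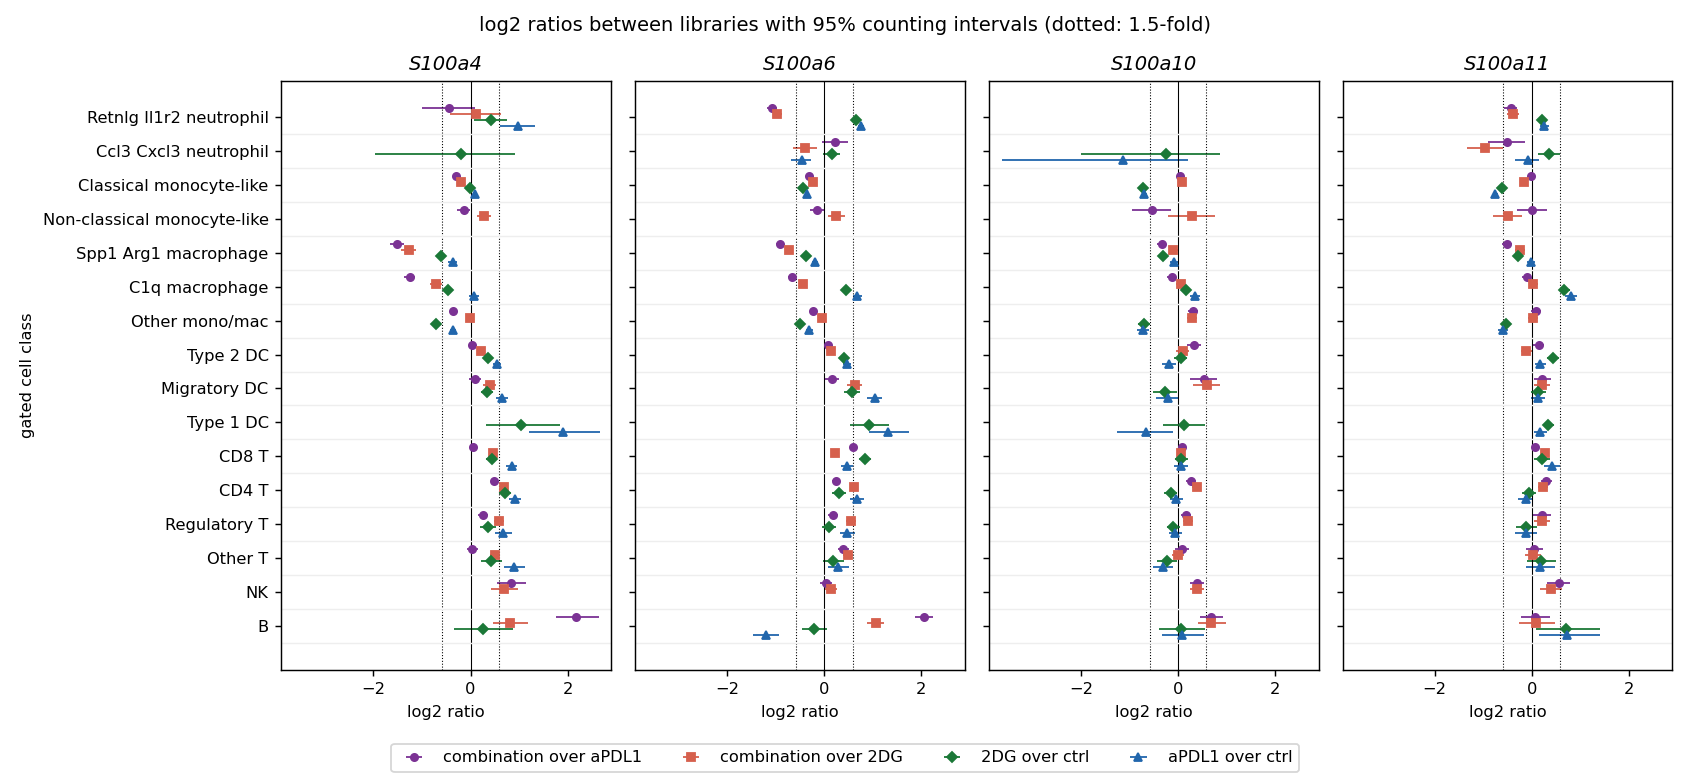
Log2 ratios of S100a4, S100a6, S100a10 and S100a11 by class for combination over aPDL1, combination over 2DG, 2DG over ctrl and aPDL1 over ctrl, for sums with at least 50 UMIs, with dotted lines at 1.5-fold. For the combination pairs, S100a4 and S100a6 lie left of 0 in Spp1 Arg1 and C1q macrophages and right of 0 in B cells.

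The other listed partners were read by count. Of 174 class levels of the 17 listed receptors and partners, 19 were higher and 14 lower in the combination than in aPDL1, with a median log2 ratio of -0.02 against -0.06 for all genes. For the combination over 2DG, 20 were higher and 9 lower of 174, with a median of 0.09. For 2DG over ctrl, 14 were higher and 38 lower of 160, with a median of -0.07, and for aPDL1 over ctrl 22 were higher and 26 lower of 161, with a median of 0.08. The listed genes were past 1.5-fold in 19% of levels for the combination over aPDL1, 16.7% for the combination over 2DG, 32.5% for 2DG over ctrl and 29.8% for aPDL1 over ctrl, against 14.3%, 13.3%, 20.5% and 22.9% over all genes. Cacybp, the binding partner of S100a6, was at 82.4, 83.8, 72.3 and 85.9 CPM in CD8 T cells, and had no such order as S100a6 there.

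Of the 12 other listed genes in the files, which are other S100 genes and S100pbp, 9 reached 50 UMIs in no class of any library. S100a13, whose protein takes part in the release of signalling proteins, reached it in 51 of 61 sums and was at 174 CPM (combination), 143 CPM (2DG), 157 CPM (aPDL1) and 138 CPM (ctrl) in CD8 T cells. S100a1 reached it in 16 sums, with a highest level of 56.5 CPM in C1q macrophages of aPDL1. S100pbp, which encodes a protein that binds S100P and is no S100 protein itself, reached it in 31 and is in the counts that follow. For the combination over aPDL1, 1 level of the 12 genes was higher and 2 lower of 25, and for aPDL1 over ctrl 2 were higher and 3 lower of 25. For the combination over 2DG 1 was higher and 1 lower of 27, and for 2DG over ctrl 2 were higher and 1 lower of 26. In the order of these 4 pairs, 12%, 20%, 7.41% and 11.5% of the levels were past 1.5-fold. Over all genes the shares were 14.3%, 22.9%, 13.3% and 20.5%, each above that of the listed genes.

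By Pearson correlation of log2(CPM + 1) over the 61 sums, the genes most like S100a8 among 9808 ranked were Lcn2 (0.96), Stfa2l1 (0.95) and Il1f9 (0.95). Those most like S100a9 were Stfa2l1 (0.96), Il1f9 (0.95) and Lcn2 (0.94). Lcn2 encodes lipocalin 2, a granule protein of neutrophils, and was at 2756, 4045, 4662 and 1713 CPM in Retnlg Il1r2 neutrophils. For S100a4 they were Aplp2 (0.78), Apaf1 (0.74) and Il21r (0.73), and for S100a6 Xaf1 (0.75), Cmip (0.73) and Fosl2 (0.72). For S100a10 they were Firre (0.86), Mdfic (0.85) and Lgals1 (0.85), of which Firre was low, with at most 166 UMIs in a sum and 21.5 CPM. For S100a11 they were Adam8 (0.82), Rab11fip1 (0.80) and Il1r2 (0.79), the last of which is a marker of the neutrophil gate. The sums share libraries and depth, and the likeness is a description of these classes.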

How the data were processed

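Cells of 4 libraries were profiled with the 10x Genomics 3′ kit v3.1, per the labels' protocols. The authors deposited filtered matrices of UMI counts, by gene and barcode. The file headers name Cell Ranger 7.0.0 and the submitters' processing notes name Cell Ranger 3.1.0 and mm10. No source used here says if introns were counted.

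The deposited counts were used as raw counts. Barcodes with 500 genes or more were kept if mitochondrial UMIs did not exceed 10%. The highest Scrublet scores (scanpy 1.11.5) were removed at 0.8% per 1000 barcodes, because the automatic threshold marked only 0.0207% of barcodes in ctrl, against 3.28% in the combination, 2.14% in 2DG and 2.69% in aPDL1. A cell joined a class when at least 2 genes and 30% of a marker panel were detected and that panel led by 20 percentage points, and 17.1%, 15.9%, 20.6% and 25.2% of cells of the combination, 2DG, aPDL1 and ctrl libraries joined none. UMIs were summed per class and library. Levels have exact Poisson intervals, shares have exact Clopper-Pearson intervals, ratios have exact conditional intervals, and log2 ratios have 0.5 added to each count. Intervals cover counting error at 95% only. Classes with under 50 cells in a library were left out of comparisons, and no test was run because each treatment has 1 library. The ratio and interval code was checked on simulated counts.

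The text names the 6 members always, genes of the fixed lists (other S100 genes, receptors and partners, regulators, neutrophil genes) by level and count, and per member the 3 genes with the highest correlation over sums of at least 50 cells. The members and lists were chosen with earlier results of these data known. Python 3.11.15, numpy 2.4.6, scipy 1.17.1 and pandas 2.3.3 were used. The alternatives were other limits on genes, mitochondrial share, doublets and gate lead, other scalings, and another fold or UMI minimum. A split of T cells by a set of marker genes is not reported here.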

Additional observations from a re-analysis of the deposited data

Results flagged for a closer look

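S100a6 in Retnlg Il1r2 neutrophils had pairs of opposite sign. With 2DG as the difference, the log2 ratio was -1.08 for the combination over aPDL1 and 0.65 for 2DG over ctrl. With aPDL1 as the difference, it was -0.97 for the combination over 2DG and 0.77 for aPDL1 over ctrl. The difference between the pairs was not tested, since each treatment has 1 library. At 2 times the doublet rate the 4 values were -0.07, -0.08, -0.13 and -0.13 in the same order. Without cells with 5 or more UMIs of Camp, Ngp and Ltf, 2DG over ctrl was 0.30 and aPDL1 over ctrl was 0.27, both short of 1.5-fold. The combination was then -0.59 over aPDL1 and -0.61 over 2DG, both still past it.

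S100a6 in B cells was also of opposite sign with aPDL1 as the difference: the log2 ratio was 1.06 for the combination over 2DG and -1.20 for aPDL1 over ctrl. This difference was not tested either. With no doublet removal, aPDL1 over ctrl was -0.45, and ctrl had 73 B cells.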

How the results depend on the processing

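Of 97 called levels, 37 stayed past 1.5-fold and 85 kept their direction under those of 10 alternative settings that could be computed for them. A setting was skipped for a level where the class fell under 50 cells, and taking off free RNA covered only 27 levels. Removing no doublets ended 20 calls, a gate lead of 40 points 25 of 88, weighting each cell equally 21, and 2 times the doublet rate 14 of 91. Asking for 1000 genes ended 5 of 91, median-of-ratios scaling 6, 20% mitochondrial UMIs 2, taking free RNA off S100a8 and S100a9 10 of 27, and 200 genes or leaving the members out of the totals 0. The cause was not tested, beyond what each choice does to the cells kept.

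The counts of members past the rule moved as follows. At a fold of 2 they were 6 of 63 for the combination over aPDL1, 4 of 64 for the combination over 2DG, 16 of 74 for 2DG over ctrl and 19 of 72 for aPDL1 over ctrl, against 3.31%, 3.46%, 7.78% and 8.47% over all genes. With a minimum of 10 UMIs, the combination had 26 of 79 over aPDL1 and 31 of 78 over 2DG, against 24.5% and 23.5%. In that setting 2DG over ctrl had 36 of 84 and aPDL1 over ctrl 47 of 84, against 29.6% and 31.1%. A gate lead of 40 points left 12 for the combination over 2DG, without a share over all genes to set beside it. At that lead only 88 of the 97 called levels of the 4 pairs could be recomputed. Without S100a8 and S100a9, a choice made after seeing the data, 2DG over ctrl had 12 and aPDL1 over ctrl 21.

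Some log2 ratios reversed. In Retnlg Il1r2 neutrophils at 2 times the doublet rate, S100a9 was 1.04 for the combination over aPDL1 and 0.36 for the combination over 2DG, S100a6 was -0.076 for 2DG over ctrl and -0.13 for aPDL1 over ctrl, and S100a8 was -1.49 for aPDL1 over ctrl. S100a8 there was -0.66 without the Camp, Ngp and Ltf cells, an alternative added after seeing the data. S100a4 for aPDL1 over ctrl there was -0.33 with no doublet removal and -0.12 with each cell weighted equally. In type 1 dendritic cells, S100a6 for 2DG over ctrl was -0.011 at a gate lead of 40 points, and S100a10 for aPDL1 over ctrl was 0.13 with each cell weighted equally. Taking the level of T and B cells off left the S100a9 of ctrl at 0 in the classes named next, so S100a9 was 7.24 for 2DG over ctrl and 3.45 for aPDL1 over ctrl in Spp1 Arg1 macrophages, and 2.60 in other monocytes and macrophages and 5.56 in type 1 dendritic cells for aPDL1 over ctrl. These values rest on the 0.5 added to each count.

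Of other choices made after seeing the data, leaving out cells with 20 or more UMIs of S100a8 or S100a9 outside neutrophils ended 5 of 33 calls, and S100a8 in C1q macrophages for the combination over aPDL1 was -0.73 in place of -2.01. B cells without Ighd lost 0 of 2. No paired analysis was possible because each treatment has 1 library. Small classes, such as the 56 Ccl3 Cxcl3 neutrophils of 2DG and the 73 B cells of ctrl, limit the precision.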
